A study of Mus musculus with 23 samples.

Results

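Krt13 encodes keratin 13, a type I keratin of the suprabasal layers of non-cornified stratified epithelia such as the lining of the mouth and oesophagus. It was chosen by its symbol in the platform annotation, with its values in these arrays already known, so its own values are described here without a test. The annotation gave the symbol to 1 probe, among 19 keratin genes that each have a probe with a single symbol and 6795 genes in all. The other 18 keratins were taken by name and set beside it on each array.

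Keratins are the intermediate filament proteins of epithelial cells. Each filament is built from a type I and a type II partner, and the usual partner of keratin 13 is keratin 4. Basal cells of the epidermis make keratins 5 and 14, cells above them make 1 and 10, and wounded or hyperproliferative epidermis makes 6, 16 and 17. Normal interfollicular epidermis makes little keratin 13, and its appearance in chemically induced mouse skin tumours is known as a marker of progression.

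Each array compared RNA of a bigenic tumour, genotype K5rTA tetOTGFbeta, with RNA of a monogenic tumour, genotype K5rTA, of the same class. Both genotypes thus carry K5rTA, read here as a tetracycline transactivator under a keratin 5 promoter, and only bigenic mice carry the inducible TGF-beta transgene. All mice were FVB adults, labelled 7 to 12 weeks of age. All had a single topical dose of 100 µg DMBA, a carcinogen, and then 5 µg of the tumour promoter TPA 2 times a week for 20 weeks. Papillomas, which are benign, arose by weeks 12 to 14 and squamous cell carcinomas between weeks 25 and 35. Going by these weeks, papillomas arose during TPA treatment and carcinomas after it, so class cannot be told apart from TPA exposure and time. Tumour-bearing mice of both genotypes received doxycycline in the chow at 1 g per kg for 48 h, so neither group is free of DMBA, TPA or doxycycline. The papilloma arrays numbered 14, with 8 bigenic and 7 monogenic tumours in 11 pairs, and the carcinoma arrays 9, with 5 bigenic and 4 monogenic tumours in 7 pairs. A pair is named here as bigenic/monogenic tumour. Tumours recur between pairs, so pairs are not independent, and the labels do not say whether tumours that share a number, such as 228A and 228B, came from 1 animal. No array compared a papilloma with a carcinoma, so the stage at which Krt13 appears could not be read from these ratios, and neither could the level of any epithelial marker.

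Values are log2 ratios with each array's median set to 0, and the log base is taken to be 2. The sources used here do not say which dye is the numerator, so a value has a side rather than a direction. If Cy5 is the numerator, a positive value stands for more RNA in the bigenic tumour, and if Cy3 is, for less. With Cy3 as the numerator every sign below turns and the sizes stay. RNA came from whole tumour pieces, in which fewer cells of a type and less RNA per cell cannot be told apart. The spread of log2 ratios on an array had an SD of 0.29 to 1.2, and between 0.24% and 29.9% of probes had no value. The labels' experiment numbers fall into 3 ranges. Papillomas have 5, 4 and 5 arrays in ranges 1, 2 and 3, and carcinomas 0, 8 and 1. Tgfb1, which encodes a TGF-beta ligand, was measured in 5 papilloma pairs, all positive, with a mean of 0.78 ± 0.69 (SD, n = 5). In 3 carcinoma pairs, of which 2 were positive, its mean was -0.0045 ± 0.15 (SD, n = 3). The 5 arrays of these carcinoma pairs ran from -0.875 to 0.936 (SD 0.68), with 3 negative and 2 positive. The SD over pairs thus hides a wider spread between arrays. Each of the 5 papilloma pairs had 1 array with a value, so Tgfb1 was not measured there in both dye orientations.

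The Krt13 gene lies in the type I keratin cluster on mouse chromosome 11, between Krt36 and Krt15 in the GRCm38.p6 gene table, and of these neighbours only Krt15 had a probe used here. The 250 bases before its start site are shown because the tumours were raised with TPA, a known activator of AP-1 factors. These bases hold a match to a loose form of an AP-1 element, in which the middle base may be any. They lie at chr11:100121567-100121816 on the minus strand of GRCm38.p6, from RefSeq, and capitals mark the match to TGANTCA, a motif that reads the same on both strands.
Krt13 promoter: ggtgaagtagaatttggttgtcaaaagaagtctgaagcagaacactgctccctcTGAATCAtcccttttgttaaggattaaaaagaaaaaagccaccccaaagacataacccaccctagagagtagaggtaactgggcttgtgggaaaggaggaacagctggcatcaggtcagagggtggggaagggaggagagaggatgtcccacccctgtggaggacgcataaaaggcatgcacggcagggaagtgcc
The single match, TGAATCA, begins 196 bases before the start site. Of all 32851 promoters in the table, 2217 (6.75%) hold the motif in a window of this length. The table has 12 of the 19 keratins, and Krt13 is the 1 of them with a match, a share near that of all promoters. A match describes letters in a window and is not evidence of binding.

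In papillomas Krt13 lay on the negative side in 10 of 11 pairs. The mean log2 ratio was -2.61 ± 1.80 (SD, n = 11 pairs), a 6.09-fold ratio, with a median of -3.15. The lowest pair was 228B/257CE at -5.34, followed by 228A/2000E at -4.47, 2145C/2000F at -3.81, 1762D/2000D at -3.67, 2145C/2000E at -3.35 and 1995B/2000J at -3.15. These 6 pairs lay more than 3 below 0 on the log2 scale. The others were 1762D/257B at -2.64, the pair of bigenic 1961B at -1.16, 228C/257CE at -0.82, 228A/257B at -0.70 and 1684B/257B at 0.43. The values thus ran from a strong difference to a slight difference on the other side, all within a single class.

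In carcinomas Krt13 lay on the positive side in 6 of 6 pairs. The mean log2 ratio was 2.71 ± 1.56 (SD, n = 6 pairs), a 6.53-fold ratio, with a median of 3.10. From highest to lowest, the pairs were 236/257A at 4.57, 237/257A at 3.61, 237/241A at 3.29, 236/241A at 2.91, 170/242 at 1.69 and 1684A/242 at 0.17. The 4 highest pairs hold the same 4 tumours in all combinations, and the 2 lowest share the monogenic tumour 242. The array of pair 1687/221, the 1 carcinoma array in range 3, had no value for Krt13.

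The mean of the carcinoma pairs exceeded that of the papilloma pairs by 5.31. The classes overlapped, because the highest papilloma pair (1684B/257B, 0.43) lay above the lowest carcinoma pair (1684A/242, 0.17). Weighted by arrays, the fitted values were -2.45 in papillomas, 3.01 in carcinomas and 5.46 for the difference. By the size of the fitted value Krt13 ranked 1 of 6413 genes in papillomas, 2 in carcinomas and 1 for the difference. These ranks describe the values with which the gene was chosen.

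**Figure D1:**
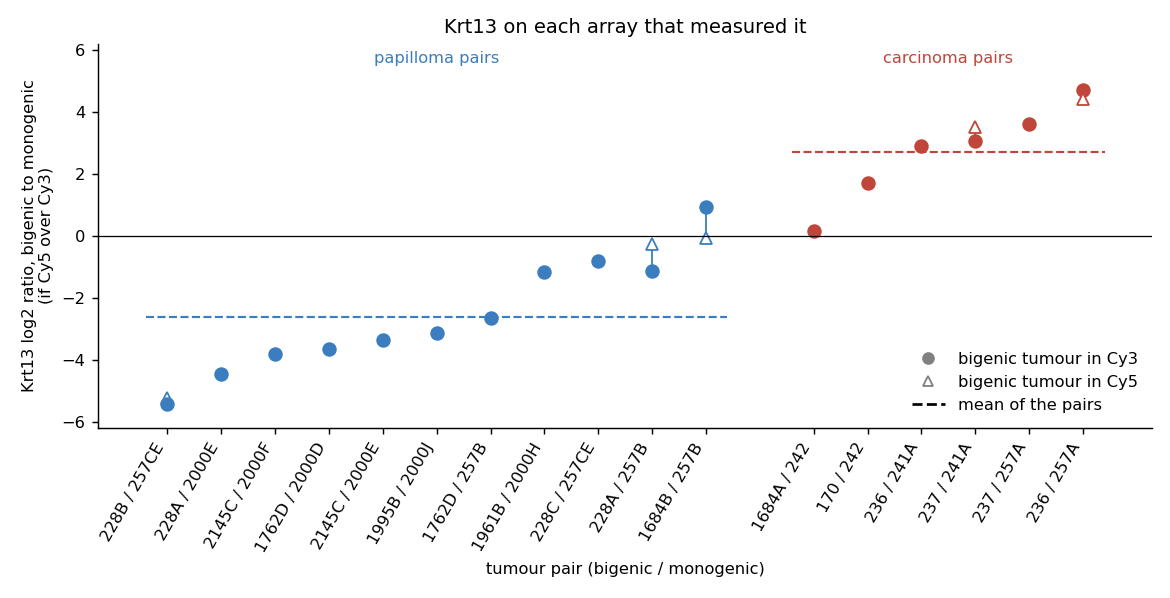
Log2 ratio of Krt13 on each array that measured it (vertical axis), by tumour pair in order of value within papillomas and carcinomas; filled circles have the bigenic tumour in Cy3, open triangles in Cy5, a line joins the arrays of a pair and dashed lines are the means of the pairs. Papilloma arrays lie below 0 except for 1 at 0.93, and the 8 carcinoma arrays lie between 0.17 and 4.72.

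Pairs that share a tumour show how far Krt13 moves with a single partner. Bigenic papilloma 228A gave -0.70 against 257B and -4.47 against 2000E, a gap of 3.77. Monogenic papilloma 257CE gave -5.34 with 228B and -0.82 with 228C, a gap of 4.52. Both gaps are larger than the SD over the papilloma pairs. Monogenic 257B was in the 3 pairs with 228A (-0.70), 1762D (-2.64) and 1684B (0.43), which differed by up to 3.07. Bigenic 2145C differed by 0.46 between its 2 partners, and 1762D by 1.03. In carcinomas the gaps were 0.31 for 237, 0.39 for 241A, 0.97 for 257A, 1.53 for 242 and 1.67 for 236.

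In 5 pairs the extracts were measured in both dye orientations. With the bigenic tumour in Cy3 and then in Cy5, Krt13 was 3.08 and 3.51 in carcinoma pair 237/241A and 4.72 and 4.43 in 236/257A. In papillomas the values were -5.44 and -5.24 for 228B/257CE, -1.13 and -0.27 for 228A/257B, and 0.93 and -0.06 for 1684B/257B. Krt13 thus kept its side in 4 of 5 pairs, the exception being the pair nearest 0. The other keratins kept theirs in 45 of 81 gene-pairs (55.6%), and all genes in 50.9% of 28047. Among values past 1 on both arrays, all genes kept their side in 346 of 409 (84.6%).

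The mean of Krt13 lay on the same side with either dye and in each experiment range. Papilloma arrays averaged -2.61 with the bigenic tumour in Cy3 (n = 11 arrays) and -1.86 in Cy5 (n = 3), and carcinoma arrays 2.69 (n = 6) and 3.97 (n = 2). In ranges 1, 2 and 3, papilloma arrays averaged -3.03 ± 1.08 (SD, n = 5), -1.61 ± 2.70 (n = 4) and -2.54 ± 2.36 (n = 5). All 8 carcinoma arrays with a value were in range 2, where papillomas and carcinomas can be set side by side, at means of -1.61 over 4 papilloma pairs and 2.71 over 6 carcinoma pairs. Papilloma values there ran from -5.44 to 0.93 and so overlapped the carcinoma values. Pairs linked through shared tumours can be counted as 1 unit. The 4 papilloma units then had means of -2.60, -3.08, -1.16 and -3.15, and the 2 carcinoma units 3.60 and 0.93.

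On a single array Krt13 often lay outside all other keratins. It was the lowest keratin on 8 of 14 papilloma arrays, with Krt10 lowest on the other 6, and the highest on 6 of 8 carcinoma arrays, with Krt8 highest on the other 2. Arrays share tumours, so these counts are not of independent samples. Those 6 carcinoma arrays hold only tumours 236, 237, 241A and 257A, which form 1 linked unit, and the other 2 share monogenic tumour 242. Each array had 15 to 18 other keratins for the comparison. With arrays of a pair averaged, Krt13 minus their median was -2.46 ± 1.88 (SD, n = 11 pairs) in papillomas, below 0 in 10, and 2.74 ± 1.37 (n = 6) in carcinomas, above 0 in all 6. Among all genes on an array it was the lowest on 6 papilloma arrays and the highest on 5 carcinoma arrays, all of tumours 236, 237, 241A and 257A.

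**Figure D2:**
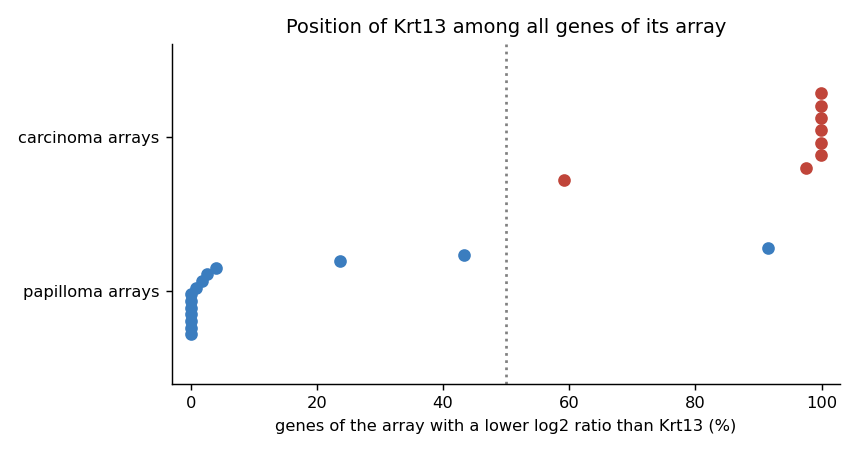
Percentage of the genes on an array whose log2 ratio was lower than that of Krt13 (horizontal axis), 1 point per array, for papilloma and carcinoma arrays; the dotted line marks the middle gene. On 11 of 14 papilloma arrays the point lies under 5%, and on 7 of 8 carcinoma arrays above 95%, and arrays share tumours.

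Krt4, the type II partner of keratin 13, was measured in fewer pairs than the model required and is given by its values. In papillomas it was negative in 6 of 6 pairs, at -2.05, -1.37, -1.32, -0.52, -0.51 and -0.37, with a mean of -1.02 ± 0.66 (SD, n = 6). In carcinomas it was positive in 3 of 3 pairs, at 0.84, 0.86 and 2.11, with a mean of 1.27 ± 0.73 (SD, n = 3). The values of the classes did not overlap, which held either way for 0.255%, and with carcinomas higher for 0.15%, of the 6670 genes with at least 6 papilloma and 3 carcinoma pairs and for 3.77% of the 53 with exactly these numbers. The class means differed by 2.29. With 1 tumour left out at a time the difference ran from 1.87 to 3.13, and without range 1 of the experiment numbers, which left 1 papilloma pair, it was 1.64. The labels list the channels of papilloma array 12 (pair 1762D/2000D, Krt4 at -0.52) in the other order. With its sign turned that pair would be positive and the difference was 2.12. Through shared tumours the 6 papilloma pairs form 3 linked groups and the 3 carcinoma pairs 1, so a permutation test over linked groups could give no two-sided p below 0.5 and none was used.

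Krt4 lay on the same side as Krt13 on 11 of the 11 arrays that measured both, 6 of papillomas and 5 of carcinomas, which hold 9 pairs. Krt13 had the larger ratio in size on all 11, by a median of 2.33. With genes kept from 2 pairs per class, limma gave Krt4 a difference of 2.38 ± 0.404 (SE, adjusted p = 0.0294), with -1.02 ± 0.272 (adjusted p = 0.225) in papillomas and 1.36 ± 0.298 (adjusted p = 0.116) in carcinomas. This fit took the 9 pairs as independent, which the shared tumours do not make them.

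**Figure D3:**
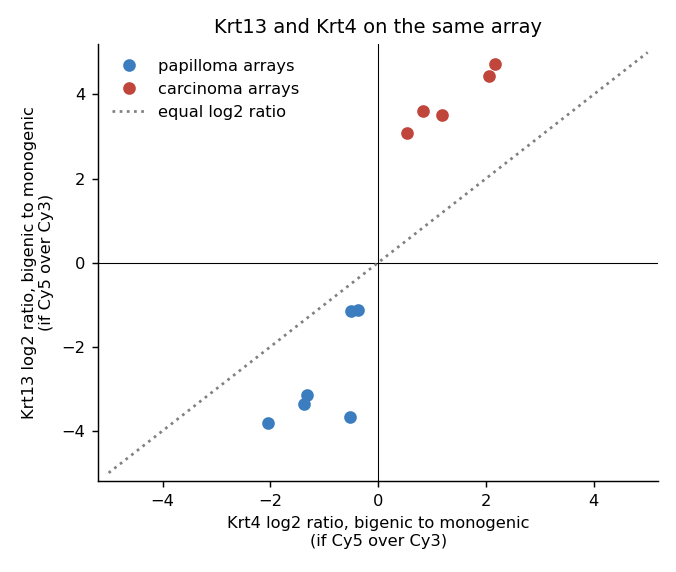
Log2 ratio of Krt13 (vertical axis) against that of Krt4 (horizontal axis) on the 11 arrays that measured both, by class, with a dotted line where the ratios are equal. The 6 papilloma arrays lie below 0 on both axes and the 5 carcinoma arrays above 0 on both, with Krt13 farther from 0 on each array.

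None of the other keratins passed the test in the model across all genes. Of the 18 on the array 17 were tested, and 0 were called in papillomas, in carcinomas or for the difference (limma, adjusted p under 0.05). Over all 6413 genes the shares called were 0.0624%, 0.0936% and 0.359%. At an unadjusted p under 0.05 there were 5, 5 and 2 of the 17, against 9.79%, 10.8% and 7.72% of all genes. The 5 in papillomas were negative, where 5.47% of all genes were past that p on the negative side and 4.32% on the positive. In carcinomas 2 were negative and 3 positive, against 6.38% and 4.44%. Both for the difference were positive, against 3.07%, with 4.65% on the negative side. Median fitted ratios of the 17 were -0.01, 0.10 and 0.10, against 0.02, -0.01 and -0.01 over all genes tested. The smallest adjusted p of these keratins was 0.224 in papillomas and 0.168 in carcinomas (limma). With each class fitted by itself, so that the classes did not share a spread, it was 0.208 and 0.569.

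Krt5 and the activation keratins Krt6a, Krt16 and Krt17 had small negative fitted values in papillomas. Krt5, of the basal layer, was at -0.30 ± 0.115 in papillomas and -0.38 ± 0.144 in carcinomas (SE, limma, adjusted p = 0.397 and 0.298). Krt6a was at -0.39 ± 0.117 and -0.33 ± 0.140 (adjusted p = 0.224 and 0.369), Krt16 at -0.31 and -0.25 and Krt17 at -0.30 and -0.07. These 4 keratins varied with the dye of the bigenic tumour. Krt5 was negative on 18 of 18 arrays with that tumour in Cy3 and positive on 4 of 5 with it in Cy5, Krt6a negative on 17 of 18 and positive on 3 of 4, Krt16 negative on 16 of 18 and positive on 4 of 5, and Krt17 negative on 13 of 18 and positive on 5 of 5. Other keratins varied with the dye too. Krt12 was positive on 12 of 15 arrays in Cy3 and negative on 4 of 5 in Cy5, and Krt32 positive on 13 of 16 and negative on 2 of 3. With a dye term the papilloma values of Krt5, Krt6a, Krt16 and Krt17 were -0.11, -0.18, -0.15 and -0.11. Krt13 was then at -2.31 in papillomas and 3.11 in carcinomas. With that term 0 of the 17 other keratins tested were called (limma), and 1, 3 and 2 had an unadjusted p under 0.05 in papillomas, in carcinomas and for the difference. Of all 6413 genes this fit called 4, 2 and 26, and 346, 330 and 476 had such a p.

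Krt10, made in the suprabasal layers of the epidermis, varied widely between papilloma pairs. Its fitted values were -0.86 ± 0.348 in papillomas (SE, limma, adjusted p = 0.426), 0.68 ± 0.434 in carcinomas (adjusted p = 0.597) and 1.53 ± 0.556 for the difference (adjusted p = 0.411). It was negative in 8 of 11 papilloma pairs, from -3.28 to 2.28, and positive in 6 of 7 carcinoma pairs. Its papilloma value was -0.25 without monogenic tumour 257B and -1.30 without 2000E, and its difference 0.93 without 257B. Krt15, a basal keratin and the cluster neighbour of Krt13, was at -0.01 ± 0.178 in papillomas and 0.75 ± 0.222 in carcinomas (adjusted p = 0.183), positive in 7 of 7 carcinoma pairs. Krt77, a suprabasal keratin, was at 0.29 ± 0.179 and 0.77 ± 0.215 (adjusted p = 0.168). Krt8, of simple epithelia, was at 0.39 ± 0.450 and 1.18 ± 0.520 (adjusted p = 0.400), with carcinoma pairs from -2.24 to 5.51. Its SD was 0.56 over papilloma pairs and 2.60 over carcinoma pairs, a gap that the SE values, from a spread shared by both classes, do not show. Its carcinoma value was 0.47 without 242, 0.55 without 236 and 2.09 without 237. The spread of Krt8 between carcinoma pairs was thus wider than that of Krt13. Krt19, the next gene of the cluster and a simple-epithelial keratin, was at -0.30 ± 0.194 and 0.12 ± 0.242 (adjusted p = 0.644 and 0.916).

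**Figure D4:**
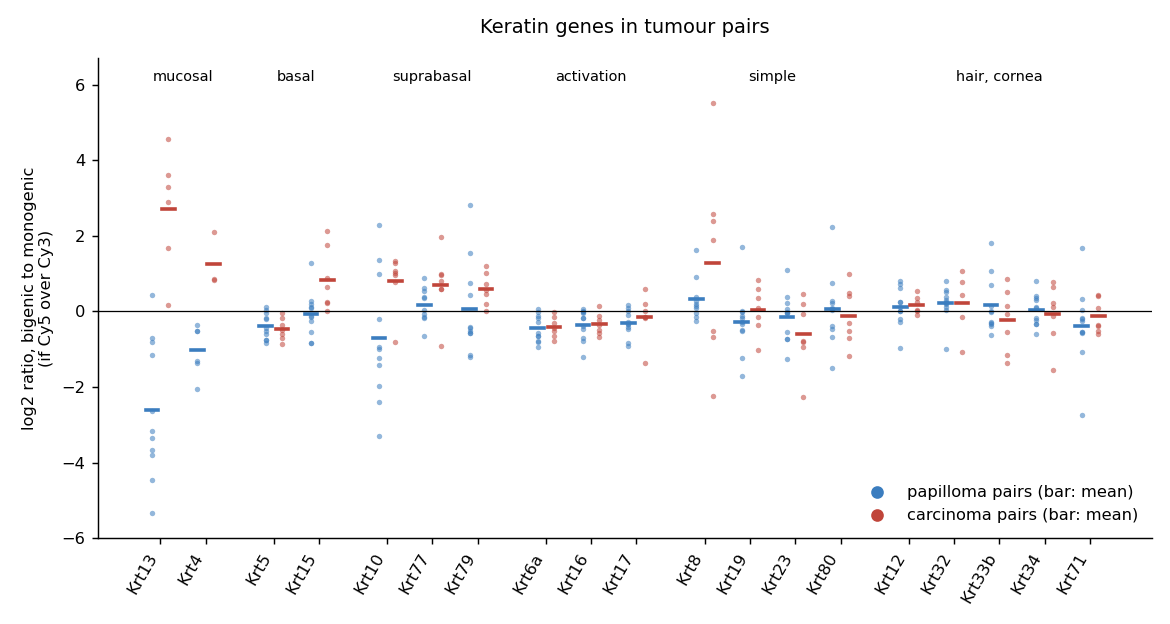
Log2 ratios of the 19 keratins (vertical axis) in papilloma and carcinoma pairs, grouped by where the keratin is made; points are pairs and bars are class means. Krt13 has the papilloma mean farthest below 0 (-2.61) and the carcinoma mean farthest above it (2.71).

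No gene of the groups near keratin 13 in function passed the test (limma). Over all 6413 genes the shares called were 0.0624% in papillomas, 0.0936% in carcinomas and 0.359% for the difference. At such shares 0 calls say little about groups of this size. An unadjusted p under 0.05 was found for 9.79% of all genes in papillomas and 10.8% in carcinomas. Of 15 tested genes of mucosal stratified differentiation 0 were called and 4 in each class had an unadjusted p under 0.05, with medians of -0.01 in papillomas and -0.31 in carcinomas. Klf5, a transcription factor of stratified epithelia, was at -0.79 ± 0.187 in papillomas (SE, limma, adjusted p = 0.125), and Tgm3, a transglutaminase, at -0.62. S100a8 and S100a9, which form calprotectin, were at -0.80 and -0.86 in carcinomas. Of 15 retinoid pathway genes 0 were called and 2 and 3 had such a p, with medians of 0.02 and 0.13. Dhrs3, a retinaldehyde reductase, was at 0.85 in papillomas. In carcinomas Crabp2, a retinoic acid-binding protein, was at -0.81 and Rarres1 at 0.62. Of 10 skin tumour stage markers 0 were called and 4 and 6 had such a p, with medians of -0.15 and -0.49. Lor, which encodes the cornified envelope protein loricrin, was at -0.82 and 0.62, and the difference of 1.44 had an adjusted p of 0.0805 (limma). Mmp9, a gelatinase, ran the other way at 1.28 and -0.56. Itgb4 and Cdh1, the stage markers of smallest p in carcinomas, were at -0.61 and -0.54 there, and at -0.07 and -0.04 in papillomas. Of 5 keratin partners and linkers 0 were called and 4 and 1 had such a p, with medians of 0.40 and 0.01. Plec, which encodes the linker plectin, was positive in 11 of 11 papilloma pairs and negative in 7 of 7 carcinoma pairs, and its difference of -0.79 had an adjusted p of 0.0702. It was named for its small p, and 0.255% of the 6670 genes likewise had classes that did not overlap.

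Markers of other cell types were read beside these values, and 0 of them were called (limma), where 0.0624% and 0.0936% of all genes were called in papillomas and carcinomas. At an unadjusted p under 0.05 there were 2 and 1 of 5 glandular, 0 and 4 of 5 macrophage, 0 and 0 of 5 fibroblast, 2 and 0 of 8 muscle and 1 and 2 of 4 keratinocyte markers in papillomas and carcinomas. Over all genes the shares past that p were 9.79% and 10.8%. Of 5 glandular and simple-epithelium markers tested, 4 were positive in papillomas, with a median of 0.44, and 3 in carcinomas, with a median of 0.12. Their mean was positive in 11 of 11 papilloma pairs, from 0.02 to 1.58, and in 4 of 7 carcinoma pairs. Epcam, an epithelial adhesion molecule, was at 0.89 in papillomas and -0.38 in carcinomas. Of 5 macrophage markers 5 were positive in carcinomas, with a median of 0.61, and 4 in papillomas, with a median of 0.14. Their mean per carcinoma pair ran from -0.25 to 2.27. Lyz2, the macrophage marker of smallest p in carcinomas, was at 1.25 there and at -0.15 in papillomas. Fibroblast markers had medians of -0.25 and 0.33, skeletal muscle markers 0.66 and 0.34, and keratinocyte markers -0.11 and -0.35. Their part in the Krt13 values was not tested.

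Across pairs, the genes whose ratios were most like those of Krt13 were named by Spearman's rho, as a description. Among 6137 genes measured in at least 15 pairs together with Krt13 the median rho was -0.01 and the 95th percentile 0.42. The highest were Trps1 at 0.80, Luc7l and Rapgef5 both at 0.77, Knop1 at 0.76, Smurf2 at 0.74 and Plcb2 at 0.73. Trps1 encodes a GATA-type repressor and Smurf2 a ubiquitin ligase of the TGF-beta pathway. The lowest were Ptpre, a phosphatase, at -0.84, Kin at -0.82 and F3, which encodes tissue factor, at -0.78. The classes lie on different sides, so the values within a class differ from these: Trps1 had a rho of 0.73 over papillomas and -0.77 over carcinomas, and Luc7l 0.69 and 0.71. Over carcinomas Rapgef5 was at 0.09, Knop1 at -0.09, Smurf2 at -0.37 and Plcb2 at 0.03. Ptpre, Kin and F3 were positive there, at 0.37, 0.26 and 0.49. Of the named genes only Luc7l thus had a like rho in both classes. Pearson's r was 0.72 for Trps1, 0.70 for Luc7l and 0.39 for Plcb2, and without carcinoma pair 236/257A and papilloma pair 228B/257CE, the 2 farthest from the median of Krt13, it was 0.83, 0.73 and 0.23. The points share tumours and arrays. Among keratins Krt15 was nearest, at 0.46.

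**Figure D5:**
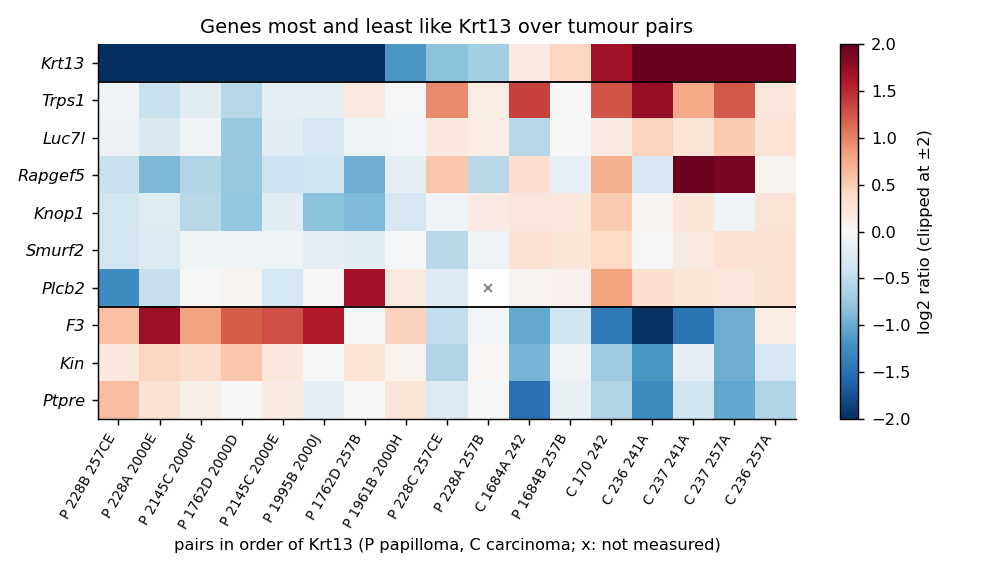
Colour map of log2 ratios, clipped at 2 either side of 0, of Krt13, the 6 genes of highest rho and the 3 of lowest (rows) in the 17 tumour pairs that measured Krt13 (columns, in order of Krt13; P papilloma, C carcinoma). Values of the other genes are mostly smaller than those of Krt13, and 1 papilloma pair, 1684B/257B, stands among the carcinoma pairs.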

How the data were processed

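The deposited values are signed ratios, 1 per probe and array, taken here as log2 ratios. What scanner, background correction, normalization, log base or numerator was used is not given in the sources used here. Per the labels, tumour RNA was extracted with TRIzol and a column clean-up and coupled to Cy3 or Cy5. The labels assigned all 23 arrays to class, tumours and dyes. Ratios were turned by dye and centred on each array's median, arrays of a pair were averaged to 18 pairs, and probes of a gene were averaged. Of 9596 probes, 7486 had 1 symbol, 483 several (not used) and 1627 no entry. Krt1, Krt2, Krt14 and Krt18 are not analysed here.

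For 6413 of 6795 genes, measured in at least 8 papilloma and 5 carcinoma pairs, 1 mean per class was fitted by generalised least squares over pairs weighted by arrays, with a term for shared tumours estimated at 0, so the p-values make no allowance for them. Statistics were moderated with limma 3.58.1 (R 4.3.3) and adjusted by the Benjamini-Hochberg method over all genes tested, with a threshold of 0.05. Both classes share 1 estimate of the spread per gene, so an SE does not give the spread of its own class. The p-values measure only this shared spread between pairs. The fit was tested on simulated data with independent pairs, the same spread for all genes and no dye effect. That test does not cover shared tumours, dye effects or unequal spreads. A second fit added a dye term (tumour share 0.15). Lists are described by counts and medians. Genes were picked by rule: 12 keratins where measured, Tgfb1, and the 6 genes of highest and 3 of lowest rho. From each list the rule picked up to 3 members of smallest p in papillomas and 2 in carcinomas. Some of the list members picked are not described here. Krt13, the lists and the rule were chosen with earlier results of these data known. Alternatives covered centring, scaling, filters, dyes, experiment ranges and each tumour left out. The number of arrays limits the precision.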

Additional observations from a re-analysis of the deposited data

Results flagged for a closer look

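Of 21 groups of keratin values examined for a sample far from the others, 2 had one, and chance marks about 5% of such groups (1 in 20). In carcinomas, Krt10 had 1 low pair, 236/257A, at -0.81, with the nearest of the other 6 pairs at 0.78. That pair had the highest Krt13 value of the carcinoma pairs. Krt17 had 1 low carcinoma pair, 170/242, at -1.37, with the nearest at -0.16.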

How the results depend on the processing

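Krt13 kept its side in each class under every alternative run. With a tumour left out, the papilloma value ran from -3.46 (without 257B) to -1.97 (without 228B), the carcinoma value from 2.27 (without 257A) to 3.71 (without 242) and the difference from 4.72 to 6.47. Under the other alternatives the ranges were -2.91 to -1.92, 2.24 to 3.48 and 4.63 to 6.25. The value nearest 0 in papillomas came from turning the sign of papilloma array 12 (pair 1762D/2000D), whose channels the labels list in the other order. The Krt13 and Krt4 values of that pair would then be positive. This alternative was added after seeing the data, as were leaving out papilloma array 2 and counting linked groups as replicates. The count of other keratins called stayed 0 in papillomas under each of these alternatives, with a smallest adjusted p of 0.0502 (limma). In carcinomas it was 1 with arrays that had the bigenic tumour in Cy3 only (Krt5, -0.50, adjusted p = 0.0465, limma), and 0 to 1 with a tumour left out (Krt77, 0.98, adjusted p = 0.0454, without 236). The Cy3-only fit called 219 of 6295 genes in carcinomas and the fit without 236 called 50 of 6515, against 6 of 6413 with all arrays. Krt5 was among the keratins that varied with the dye of the bigenic tumour. For the difference the count of other keratins called was 1 with genes kept from 2 pairs per class, where 24 of 6793 genes were called. With a tumour left out that count was 0 to 1. The keratin was in each case Krt4, which enters at the lower filter. The 9 fits that called Krt4 left out none of its own tumours, and in the other 15 it fell below the filter, so its call was not tested without them. Papilloma and carcinoma arrays share array numbers in the labels, but arrays of the same number did not deviate together (r from -0.32 to 0.16 over 9 numbers). With array number as a replicate block Krt13 carcinoma minus papilloma was 4.85, and the count of other keratins called for the difference did not change.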
